A study of Mus musculus with 12 samples.

Results

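The IL-1 receptor family of regulatory T cells (Treg) was followed in 7 of the 41457 genes counted by the authors. The 7 genes were taken by symbol: the receptor chains Il18r1, Il18rap, Il1rl1, Il1r1, Il1r2 and Il1rap, and the adaptor Myd88. They were selected on their exon reads and TPM across the 4 groups of genotype and culture, with earlier results of these data known. All their levels and differences between the groups are therefore given as a description without a test, and where members past a threshold are counted, nothing is read from the count.

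Receptors of this family signal in pairs. A ligand-binding chain (Il18r1 for IL-18, Il1rl1 or ST2 for IL-33, Il1r1 for IL-1) joins a second chain (Il18rap for IL-18, Il1rap for IL-1 and IL-33), and both turn their intracellular TIR domains to the adaptor MyD88, which passes the signal through IRAK kinases and TRAF6 to NF-kappaB. Il1r2 binds IL-1 without a signalling domain and acts as a decoy. ST2 marks Treg of tissues such as fat, gut and skin, and IL-18 and IL-33 receptors are best known on activated T cells, NK cells, mast cells and basophils.

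From the spleen, CD4+ T cells positive for RFP were sorted and cultured, and their poly(A) RNA was sequenced in 4 groups of 3 libraries each. CD18wt mice carried wild-type Itgb2 alleles, and CD18Foxp3 mice carried Itgb2 (CD18) alleles with a floxed exon. All mice carried Cre under the control of Foxp3 together with an RFP reporter of Cre activity, so the controls also expressed Cre, and any cell in which Cre had acted was in the sort. The unstimulated groups were kept overnight in 5 U/ml IL-2, and the stimulated groups also received 1 µg/ml anti-CD3 and 2 µg/ml anti-CD28. Mice of the study were matched for age and sex, and an age for the mice behind these libraries is not given in the sources used here. The labels call the libraries biological replicates without naming the mouse behind each one, so p-values measure the spread between these libraries.

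The libraries held 10665174 to 19005482 exon reads. Itgb2, the deleted gene, was at 387 to 465 TPM in unstimulated CD18wt libraries and 229 to 257 TPM in unstimulated CD18Foxp3 libraries, and at 329 to 331 TPM and 131 to 202 TPM in the stimulated ones. TPM (transcripts scaled to the same total in each library) corrects for gene length, so it also serves to compare levels between genes. Foxp3 averaged 92.3 TPM in unstimulated CD18wt Treg, 100.1 TPM in unstimulated CD18Foxp3 Treg, 157 TPM in stimulated CD18wt Treg and 187 TPM in stimulated CD18Foxp3 Treg. Of 5 mast cell and basophil markers, Fcer1a, Ms4a2 and Mcpt8 had no read in any library and the 5 together reached at most 0.728 TPM. Of 5 NK cell markers, Ncr1 and Klra8 had no read in any library and Klrk1 reached at most 0.273 TPM. Klrb1c averaged 4.40 TPM in unstimulated CD18wt and 2.22 TPM in unstimulated CD18Foxp3 Treg, lower without overlap, as were 6.9% of the genes tested. Eomes averaged 3.44 and 2.65 TPM.

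The 5 members of the receptor cluster lie on chromosome 1 of GRCm38, all on the forward strand and within 477627 bases, with the IL-36 receptor gene Il1rl2 between Il1r1 and Il1rl1. Il1r2 (ENSMUSG00000026073, chr1:40074079-40125231) comes first, followed by Il1r1 (ENSMUSG00000026072, chr1:40225080-40317257), Il1rl1 (ENSMUSG00000026069, chr1:40429570-40465415), Il18r1 (ENSMUSG00000026070, chr1:40465552-40500854) and Il18rap (ENSMUSG00000026068, chr1:40515362-40551705). Myd88 (ENSMUSG00000032508) lies on the reverse strand at chr9:119335934-119341411 and Il1rap (ENSMUSG00000022514) on the forward strand at chr16:26581704-26730117. All exon reads of the 5 genes on chromosome 1 were placed uniquely. The unique share was 91.3% for Il1rap and 90.2% for Myd88. Only 136 bases separate the annotated end of Il1rl1 from the start of Il18r1, and 14507 bases separate Il18r1 from Il18rap. The short stretch between the ST2 gene and Il18r1 is shown because the start of Il18r1 directly follows the end of its neighbour. It reads, on the forward strand of GRCm38.p6 (chr1:40465416-40465551), as follows.
Il1rl1 to Il18r1: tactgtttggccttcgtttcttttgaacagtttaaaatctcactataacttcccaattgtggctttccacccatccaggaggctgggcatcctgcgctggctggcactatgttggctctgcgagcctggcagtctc

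The 250 bases before a RefSeq start (GRCm38.p6) were available for all 7 members, in 11 windows because Il18r1, Il1rl1 and Il1r1 have several starts. They were searched on both strands for GATAA, the core recognised by GATA factors such as GATA3, and for TGANTCA, the AP-1 element. GATAA was present in 4 of the 11 windows against 22.6% of 32851 windows of all genes. None of the 11 windows held TGANTCA (6.75% of all windows). The 4 windows with GATAA belong to 3 receptor genes of the chromosome 1 cluster and are printed below with GATAA, or TTATC where it lies on the other strand, in capitals. The ST2 gene has 2 RefSeq starts, at chr1:40429320-40429569 and chr1:40439379-40439628 for the windows before them, and the window before the first start held 2 matches.
Il1rl1, first start: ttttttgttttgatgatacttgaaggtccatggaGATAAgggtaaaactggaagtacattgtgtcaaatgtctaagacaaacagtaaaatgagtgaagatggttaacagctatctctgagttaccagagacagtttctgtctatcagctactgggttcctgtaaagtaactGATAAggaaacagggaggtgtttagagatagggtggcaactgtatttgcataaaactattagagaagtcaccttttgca
Il1rl1, second start: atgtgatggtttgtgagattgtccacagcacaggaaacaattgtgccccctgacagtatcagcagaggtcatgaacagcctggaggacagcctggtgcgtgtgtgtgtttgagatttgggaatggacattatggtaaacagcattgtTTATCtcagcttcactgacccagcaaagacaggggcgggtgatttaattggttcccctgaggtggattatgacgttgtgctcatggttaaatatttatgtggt
Il18rap (chr1:40515112-40515361): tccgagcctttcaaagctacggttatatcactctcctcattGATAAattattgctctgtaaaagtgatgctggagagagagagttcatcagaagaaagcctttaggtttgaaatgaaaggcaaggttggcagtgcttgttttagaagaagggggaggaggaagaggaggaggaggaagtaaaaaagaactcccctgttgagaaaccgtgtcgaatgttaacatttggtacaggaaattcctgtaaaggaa
Il1r2 (chr1:40085843-40086092): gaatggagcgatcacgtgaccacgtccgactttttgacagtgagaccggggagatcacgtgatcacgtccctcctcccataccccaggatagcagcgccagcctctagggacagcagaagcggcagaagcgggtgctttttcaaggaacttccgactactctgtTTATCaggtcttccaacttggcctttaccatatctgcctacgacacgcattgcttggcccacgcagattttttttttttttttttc
No window before a start of Il18r1 held GATAA, including both windows that contain the 136 bases above. These matches describe letters in the reference and were not tied to binding of any factor in these cells.

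Levels differed widely within the family. In unstimulated CD18wt Treg, Myd88 was highest at 60.1 ± 2.93 TPM (SD, n = 3), followed by Il18r1 at 42.1 ± 4.78 TPM and Il1r2 at 39.6 ± 9.74 TPM, whose libraries overlapped. Il1rap (5.36 ± 0.483 TPM), Il1rl1 (4.98 ± 0.451 TPM) and Il18rap (4.88 ± 0.990 TPM) formed a lower group in which neighbours overlapped, and Il1r1 was lowest at 0.595 ± 0.328 TPM. The ligand-binding chain of the IL-18 receptor was thus present at a higher level per length than its partner Il18rap in every library, with ranges of 17.9 to 91.7 TPM and 3.94 to 22.3 TPM over all 12. In unstimulated CD18Foxp3 Treg, Il18r1 ranked above Myd88 without overlap. After stimulation the decoy Il1r2 ranked second in CD18wt Treg and first in CD18Foxp3 Treg, where its libraries overlapped those of Myd88.

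**Figure D1:**
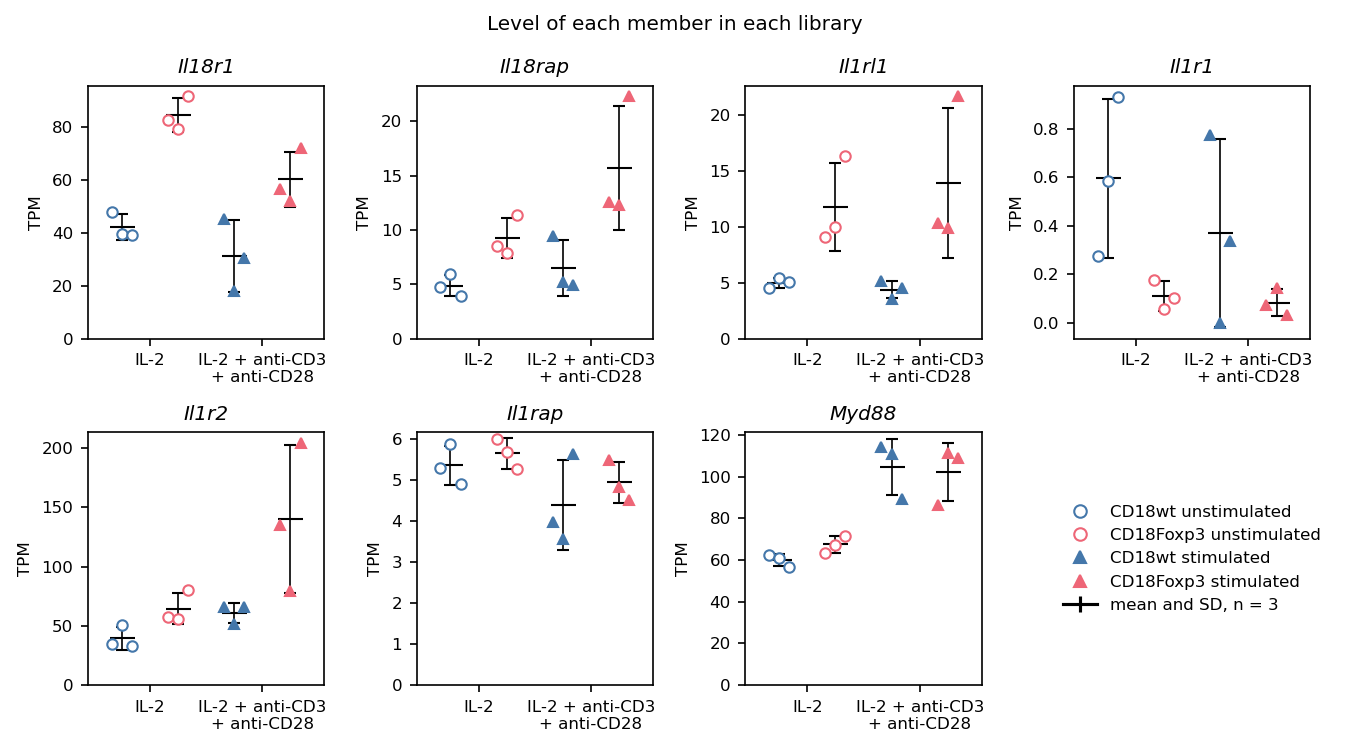
TPM of each member in each library (points), with the mean and SD of the 3 libraries of a group (bars), for CD18wt and CD18Foxp3 Treg cultured in IL-2 or in IL-2 with anti-CD3 and anti-CD28. The vertical scale differs between genes. In both cultures the CD18Foxp3 points of Il18r1, Il18rap, Il1rl1 and Il1r2 lie above all CD18wt points of the same culture, and Il1r1 stays below 1 TPM.

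In unstimulated Treg, 4 receptor chains were higher in every CD18Foxp3 library than in any CD18wt library, a pattern found in 8.74% of the 11829 genes tested in this comparison. Il18r1 was at 47.7, 39.7 and 39.1 TPM in CD18wt libraries and at 82.7, 79.4 and 91.7 TPM in CD18Foxp3 libraries, a log2 fold change of 0.98 (SE 0.094). The groups lay far apart, since the lowest CD18Foxp3 library exceeded the highest CD18wt library by more than the spread within either group. Its partner Il18rap was at 4.79, 5.91 and 3.94 TPM in CD18wt and at 8.55, 7.84 and 11.4 TPM in CD18Foxp3 libraries, a log2 fold change of 0.89 (SE 0.17). Both chains of the IL-18 receptor therefore had a similar difference on the log2 scale at very different levels.

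The ST2 gene Il1rl1 was at 4.51, 5.40 and 5.04 TPM in unstimulated CD18wt libraries and at 9.07, 10.0 and 16.3 TPM in CD18Foxp3 libraries, a log2 fold change of 1.21 (SE 0.20). Il1r2 was at 34.8, 50.9 and 33.3 TPM against 57.7, 55.9 and 80.0 TPM, a log2 fold change of 0.67 (SE 0.17). For Il18r1, Il18rap, Il1rl1 and Il1r2 alike, replicate 3 was the highest CD18Foxp3 library. Without it the log2 fold changes were 0.94 for Il18r1, 0.74 for Il18rap, 0.93 for Il1rl1 and 0.52 for Il1r2.

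Il1r1, the signalling receptor of IL-1, went the other way at a level near the detection limit. It had 11, 25 and 24 exon reads in unstimulated CD18wt libraries and 8, 2 and 4 in CD18Foxp3 libraries, so that the groups did not overlap in reads, and the fitted log2 fold change was -2.37 (SE 0.70). Il1rap, the second chain for IL-1 and IL-33, was at 5.29, 5.88 and 4.92 TPM in CD18wt and at 6.01, 5.70 and 5.26 TPM in CD18Foxp3 libraries, which overlapped (log2 fold change 0.054, SE 0.13). Myd88 was at 62.3, 61.2 and 56.8 TPM against 63.5, 67.4 and 71.7 TPM, separated by a narrow gap (log2 fold change 0.14, SE 0.085). Values lower without overlap, as for Il1r1, were found in 6.9% of the genes tested. The threshold of the study, a fold change of at least 1.5 with an adjusted p of at most 0.01, was passed by 1 member, Il18r1, and by 0.135% of all genes. Leaving out each library in turn kept the log2 fold change of Il18r1 between 0.92 and 1.06, but it was no longer past the threshold without CD18wt replicate 2 or without any 1 of the 3 CD18Foxp3 libraries.

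In stimulated Treg, the same 4 receptor chains were again higher in every CD18Foxp3 library, as were 5.02% of the 11930 genes tested. Il18r1 was at 45.1, 17.9 and 30.3 TPM in CD18wt libraries and at 56.6, 51.8 and 72.0 TPM in CD18Foxp3 libraries. CD18wt libraries spread widely here, and the gap to the lowest CD18Foxp3 library was small. The log2 fold change was 0.98 (SE 0.26).

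Il18rap was at 9.45, 5.16 and 4.88 TPM in stimulated CD18wt libraries and at 12.6, 12.3 and 22.3 TPM in CD18Foxp3 libraries. Its log2 fold change was 1.30 (SE 0.31). Il1rl1 was at 5.12, 3.54 and 4.50 TPM against 10.3, 9.86 and 21.7 TPM. ST2 thus had the widest separation of the family in stimulated Treg, with a log2 fold change of 1.69 (SE 0.31). Il1r2 was at 66.0, 51.3 and 65.5 TPM in CD18wt and at 135, 79.8 and 204 TPM in CD18Foxp3 libraries, a log2 fold change of 1.22 (SE 0.29). The CD18Foxp3 libraries of this decoy receptor differed more among themselves than those of any other receptor in TPM.

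Neither Il1rap nor Myd88 separated the genotypes after stimulation. Il1rap was at 3.97, 3.56 and 5.63 TPM in CD18wt and 5.50, 4.85 and 4.52 TPM in CD18Foxp3 libraries (log2 fold change 0.20, SE 0.21). Myd88 was at 114, 111 and 89.4 TPM against 86.5, 112 and 109 TPM (log2 fold change -0.034, SE 0.17), and the sign of that value turned with the library left out. Il1r1 had 19, 0 and 11 exon reads in CD18wt and 3, 5 and 1 in CD18Foxp3 libraries, too few for the fit, and the library without a read allows up to 3. The groups overlapped.

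**Figure D2:**
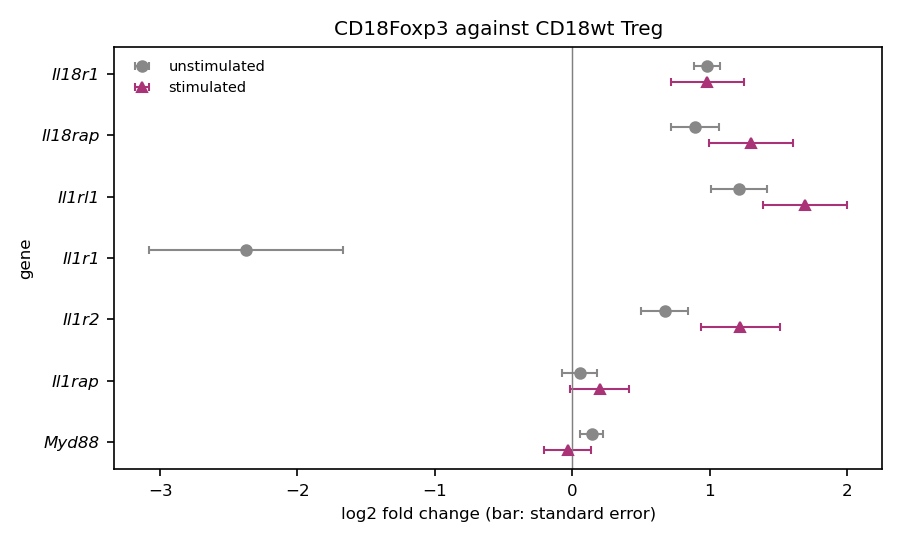
Fitted log2 fold change of CD18Foxp3 against CD18wt Treg (horizontal axis, positive where CD18Foxp3 is higher) for each member, with its standard error, in unstimulated Treg (circles) and stimulated Treg (triangles). Il18r1, Il18rap, Il1rl1 and Il1r2 lie between 0.67 and 1.69 in both cultures, Il1rap and Myd88 near 0, and Il1r1 could be fitted in unstimulated Treg only, at -2.37.

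Of the 6 members with enough reads in stimulated Treg, 0 passed the threshold by edgeR's quasi-likelihood test, as did 0% of all genes. At an unadjusted p under 0.05 stood 4 members and 583 genes in all (4.89%). DESeq2's Wald test called 3 members, Il1rl1, Il1r2 and Il18rap, and 22 genes in all, and edgeR's likelihood ratio test called Il1rl1 and 16 genes in all. A fold change of at least 1.5 together with no overlap was reached by the same 4 members and by 1.84% of the genes tested. These counts rest on values the choice had used.

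Replicate 3 of CD18Foxp3 Treg was the highest of its group for these 4 genes in the stimulated culture too. Without that library the log2 fold changes in stimulated Treg were 0.83 for Il18r1, 0.96 for Il18rap, 1.22 for Il1rl1 and 0.84 for Il1r2. The summed level of 7 Treg and CD4 T cell markers was also higher in stimulated CD18Foxp3 libraries (3877 to 4459 TPM) than in CD18wt libraries (2963 to 3794 TPM), while in unstimulated Treg it ranged from 1876 to 1927 TPM within 1624 to 2107 TPM. The genes of this list did not move together in stimulated Treg. Il2ra averaged 980 TPM in CD18wt and 1372 TPM in CD18Foxp3 Treg and Ctla4, which overlapped, 580 and 925 TPM. Cd4 was at 366 and 321 TPM and Cd3e at 265 and 268 TPM. Of the 7, 2 (Il2ra and Ikzf2) were higher without overlap, beside 5.02% of all genes, and 1 (Cd4) was lower, beside 4.41%. In unstimulated Treg, Il2ra was lower without overlap (153 and 122 TPM), beside 6.9% of all genes. Summed over 5 NK cell markers, the level was lower in unstimulated CD18Foxp3 Treg (3.98 to 5.77 TPM) than in CD18wt Treg (6.58 to 8.55 TPM) and overlapped after stimulation (1.11 to 2.56 TPM and 1.32 to 2.31 TPM). The part of these differences in the receptor values was not tested. In RNA of a whole sorted population, fewer cells with a transcript and less of it per cell cannot be told apart.

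The cluster on chromosome 1 was then set beside its neighbourhood. Within 500 kb of Il18r1 the tables list 19 genes, 5 of them members. Another 4 genes had enough reads to be tested between the genotypes. Map4k4, a kinase gene on one side, had log2 fold changes of 0.0071 (SE 0.077) in unstimulated and -0.24 (SE 0.17) in stimulated Treg. Mfsd9, a transporter gene on the other side, had -0.18 (SE 0.42) and 0.12 (SE 0.49). Il1rl2, the IL-36 receptor gene, lies between Il1r1 and Il1rl1 and had 0.061 (SE 0.38) and -1.31 (SE 0.57). In stimulated Treg it was lower without overlap, as were 4.41% of the genes tested. Gm16894, an antisense transcript that overlaps Il1r2, held at most 18 reads in any library. It was fitted in unstimulated Treg only (log2 fold change 0.83, SE 0.59). None of the 4 passed the threshold between the genotypes where tested, beside 0.135% of all genes in unstimulated and 0% in stimulated Treg. Of the members, Il18r1 alone passed, in unstimulated Treg. The members with higher values in CD18Foxp3 Treg were Il1rl1, Il18r1 and Il18rap, which adjoin each other, and Il1r2 at the other end. Il1r1 and Il1rl2 lie between them.

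**Figure D3:**
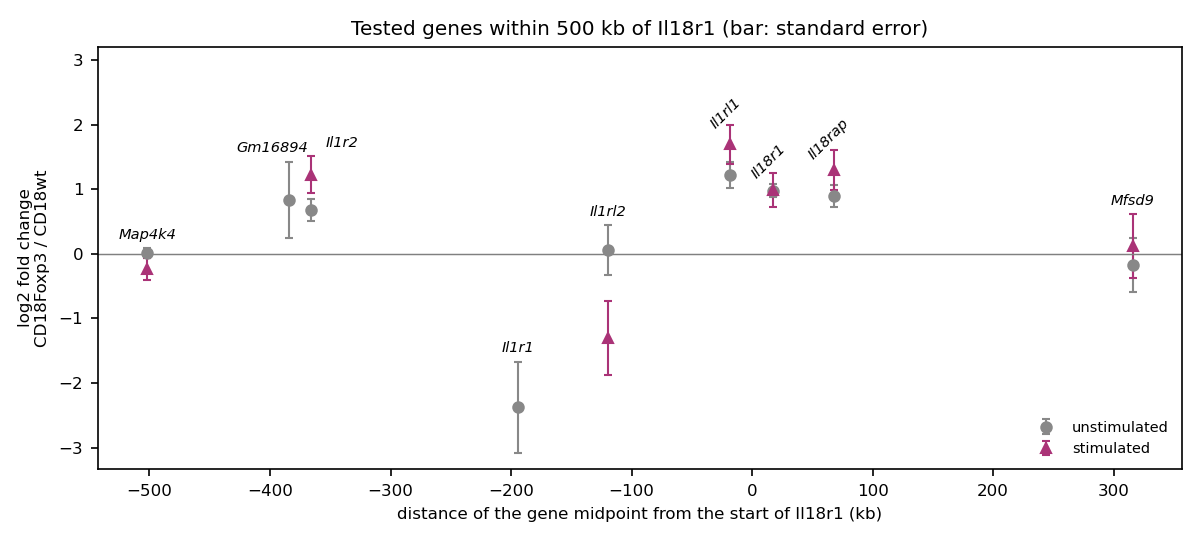
Fitted log2 fold change of CD18Foxp3 against CD18wt Treg, with its standard error, for the tested genes within 500 kb of Il18r1, placed by the distance of each gene's midpoint from the start of Il18r1 in kb. Il1rl1, Il18r1 and Il18rap lie side by side near 0 kb at 0.89 to 1.69, whereas Map4k4 and Mfsd9 at the edges lie between -0.24 and 0.12.

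Between the cultures, Il18r1 was lower after stimulation in both genotypes, past the threshold in CD18Foxp3 Treg. The comparisons of the cultures share their libraries with those of the genotypes. TPM of all genes shifted upwards with stimulation, with a median log2 change of 0.42 in CD18wt and 0.35 in CD18Foxp3 Treg on the log2(TPM + 0.1) scale, against 0.024 and 0.015 for the TMM-scaled counts of the fit. Changes on stimulation are therefore given from the fit. In CD18Foxp3 Treg, Il18r1 fell from 82.7, 79.4 and 91.7 TPM to 56.6, 51.8 and 72.0 TPM, so that every stimulated library lay below every unstimulated one, as in 19.2% of the genes tested. Its log2 fold change was -0.86 (SE 0.14), and it was the single one of 6 fitted members past the threshold, which 38.6% of 12019 genes passed. In each fit without 1 library it remained past the threshold, with values from -1.01 to -0.75.

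In CD18wt Treg the fitted change of Il18r1 had the same size, -0.86 (SE 0.25), but did not pass. One stimulated CD18wt library, replicate 1 at 45.1 TPM, lay within the unstimulated range. Without it the log2 fold change was -1.22 and passed the threshold. The difference between the genotypes in the response of Il18r1 was 0.0023 on the log2 scale (SE 0.30).

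In CD18wt Treg the member past the threshold was Il1rap, with a log2 fold change of -0.70 (SE 0.19). This was 1 of 7 members past the threshold, against 33.6% of 11930 genes. Its TPM overlapped between the cultures (5.29, 5.88 and 4.92 TPM against 3.97, 3.56 and 5.63 TPM), and without any 1 of 5 libraries (each unstimulated library, or stimulated replicate 1 or 2) it no longer passed, at values from -0.73 to -0.63. In CD18Foxp3 Treg, Il1rap had -0.55 (SE 0.15), and -0.67 past the threshold where stimulated replicate 1 was left out.

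The remaining members did not pass in either genotype. Il1rl1 had log2 fold changes of -0.59 (SE 0.22) in CD18wt and -0.12 (SE 0.32) in CD18Foxp3 Treg. For Il18rap the values were 0.0040 (SE 0.27) and 0.40 (SE 0.25), the latter 0.057 without stimulated replicate 3 of CD18Foxp3 Treg. The decoy Il1r2 had 0.21 (SE 0.17) in CD18wt and 0.76 (SE 0.30) in CD18Foxp3 Treg. Without 1 library its value in CD18Foxp3 Treg ran from 0.38, where stimulated replicate 3 was left out, to 1.05 and past the threshold, where stimulated replicate 2 was left out, and in CD18wt Treg from 0.11 to 0.41. Myd88 had 0.41 (SE 0.15) and 0.23 (SE 0.12). Il1r1 had -1.17 (SE 0.97) in CD18wt Treg and could not be fitted in CD18Foxp3 Treg, where its 8, 2 and 4 exon reads without and 3, 5 and 1 with stimulation overlapped.

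The scale moved these values. On log2(TPM + 1), where the median of all genes rose, limma gave -0.51 in CD18wt and -0.50 in CD18Foxp3 Treg for Il18r1, and -0.26 and -0.16 for Il1rap, all of them short of the threshold. Il1rl1 had -0.16 and 0.18, Il18rap 0.31 and 0.67, and Il1r2 0.62 and 1.02 on that scale. Myd88 reached 0.79 and 0.58 and passed in CD18wt Treg, and with a pseudocount of 0.1 it also passed in CD18Foxp3 Treg at 0.59.

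**Figure D4:**
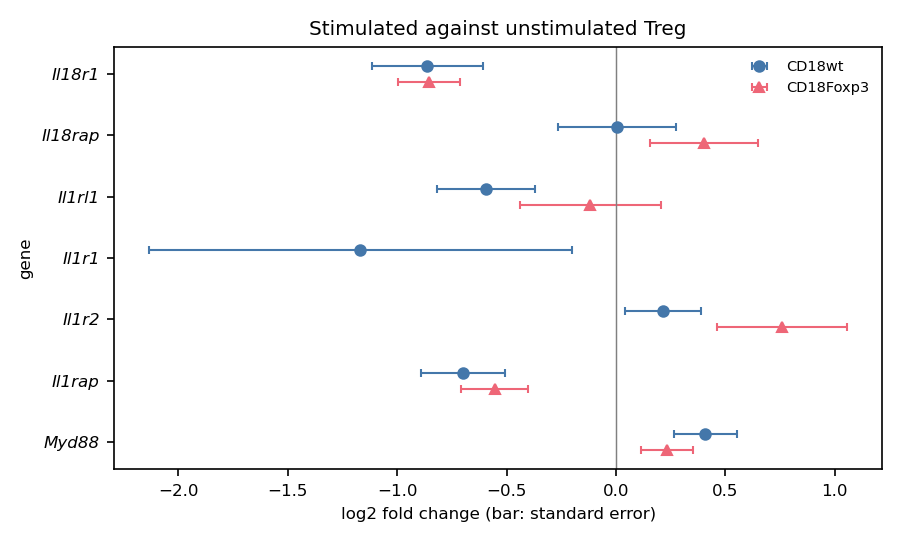
Fitted log2 fold change of stimulated against unstimulated Treg (horizontal axis, negative where stimulated Treg are lower) with its standard error, for CD18wt (circles) and CD18Foxp3 (triangles). Il18r1 lies at -0.86 in both genotypes, Il1rap at -0.70 and -0.55, and Il1r2 at 0.21 and 0.76, with standard errors of the latter pair that nearly touch.

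The interaction of genotype and stimulation, fitted on all 12 libraries, called 0 of 7 members and 0 of 12636 genes by edgeR's quasi-likelihood test and 0 members under any other setting, with 485 genes (3.84%) at an unadjusted p under 0.05. Its values ran from -0.18 (SE 0.19) for Myd88 to 0.54 (SE 0.39) for Il1r2. Standard errors ran from 0.19 to 1.56 on the log2 scale.

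Reads over introns gave a further view of the family, a measure chosen after its values had been seen. The intron share is the percentage of intron reads among exon and intron reads of a gene. For Il18r1 it was 6.85%, 8.20% and 6.71% in unstimulated CD18wt libraries and 14.0%, 12.1% and 19.6% in stimulated ones. In CD18Foxp3 Treg it was 7.64%, 7.51% and 7.07% without and 18.6%, 20.5% and 14.3% with stimulation. Every stimulated library thus had a higher intron share of Il18r1 than every unstimulated library of either genotype. The share rose by 7.94 percentage points in CD18wt and 10.4 percentage points in CD18Foxp3 Treg, against a median of 0.815 and 0.715 points over the genes with at least 100 exon and intron reads in each library. Such a rise without overlap (here given with no test) was found in 19.8% of 8117 genes in CD18wt and 31.5% of 8662 genes in CD18Foxp3 Treg.

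Between the genotypes the intron share of Il18r1 hardly differed in unstimulated Treg (7.25% ± 0.823 and 7.41% ± 0.301, SD, n = 3 each) and overlapped in stimulated Treg (15.2% ± 3.90 and 17.8% ± 3.14, SD, n = 3 each). The difference in exon reads of Il18r1 between unstimulated genotypes was therefore accompanied by a difference of similar proportion in intron reads, 107, 115 and 55 in CD18wt against 235, 179 and 209 in CD18Foxp3 libraries. Il1rap also had a higher intron share in stimulated CD18Foxp3 libraries, 13.9%, 13.3% and 7.07% against 4.13%, 4.11% and 6.53%, without overlap. Its CD18wt libraries overlapped between the cultures. Myd88 had few intron reads, with shares of 0.681% to 1.20% in unstimulated and 1.30% to 2.08% in stimulated CD18Foxp3 libraries. For Il1rl1, Il18rap and Il1r2 the shares overlapped in every comparison. The 7 to 11 intron reads of Il1r1 in stimulated CD18Foxp3 libraries outnumbered its 1 to 5 exon reads in each library.

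**Figure D5:**
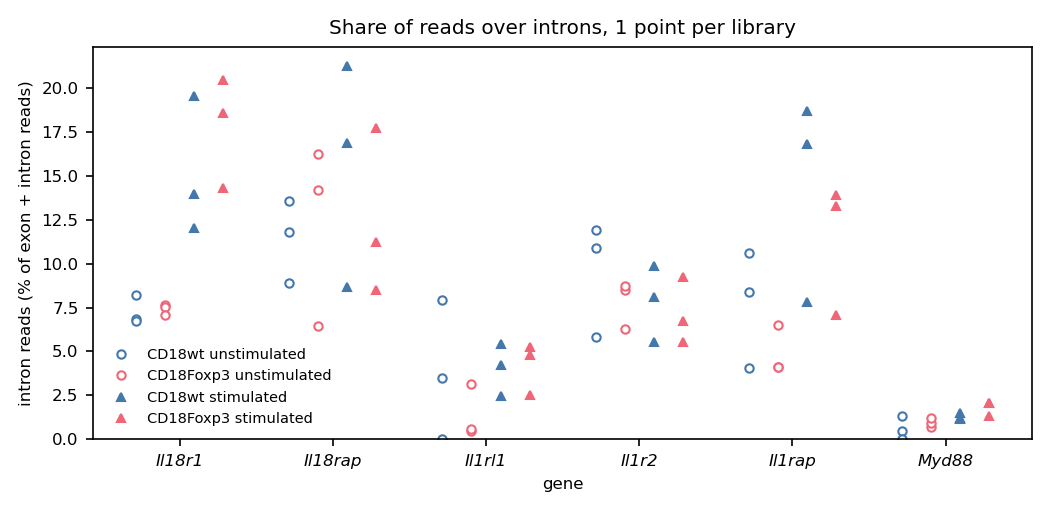
Intron reads as a percentage of exon and intron reads for 6 members, 1 point per library, in the 4 groups. For Il18r1 the 6 stimulated libraries lie at 12.1% to 20.5% and the 6 unstimulated ones at 6.71% to 8.20%, whereas the groups of Il1rl1 and Il1r2 overlap.

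Ligands and other receptors of the family were counted from lists that cover the pathway, chosen with earlier results of these data known. Of 15 symbols for ligands and binding proteins, 11 were in the tables, where 4 genes of the IL-36 group appear under their older names. Il33, Il1f5, Il1f6, Il1f8 and Il1f10 had no read in any library. Il18, the ligand of Il18r1, averaged 2.41 TPM in unstimulated CD18wt and 1.23 TPM in unstimulated CD18Foxp3 Treg. Its libraries overlapped (0.918 to 3.58 TPM and 0.816 to 1.87 TPM). The soluble inhibitor of IL-18, Il18bp, averaged 2.10 and 3.44 TPM and overlapped too (1.06 to 3.58 TPM and 2.98 to 4.04 TPM). In stimulated CD18wt and CD18Foxp3 Treg, Il18 averaged 1.52 and 0.755 TPM and Il18bp 2.02 and 2.09 TPM. Il1a, an IL-1 gene, had too few reads to be fitted between the cultures. It averaged 0.135 TPM (0.0752 to 0.249 TPM) in unstimulated and 2.78 TPM (0.688 to 4.47 TPM) in stimulated CD18wt Treg. In CD18Foxp3 Treg its averages were 0.0271 TPM (0 to 0.0814 TPM) and 1.40 TPM (0.720 to 2.47 TPM). Il1rn, the IL-1 receptor antagonist, was the single tested ligand-list gene past the threshold in any comparison. This was 1 of 3 tested ligand-list genes on stimulation of CD18wt Treg, where 33.6% of all genes passed. Il1rn fell there from 1.16 ± 0.264 to 0.160 ± 0.102 TPM (SD, n = 3 each, log2 fold change -3.16, adjusted p = 0.0020, edgeR quasi-likelihood test). In CD18Foxp3 Treg it averaged 0.561 TPM without and 0.591 TPM with stimulation (log2 fold change -0.30, adjusted p = 0.724, edgeR quasi-likelihood test), and the interaction was 2.87 (SE 1.02, adjusted p = 0.987, edgeR quasi-likelihood test). On stimulation of CD18wt Treg the myeloid marker Lyz2 also fell, from 8.35 to 0.923 TPM (log2 fold change -3.56), as did the B cell marker Pax5 (-3.95). Cd68, another myeloid marker, had 0.21 (SE 0.50). The part of other cells in the values of Il1rn was not tested. Of 4 further receptors, Il1rapl1 and Il1rapl2 had no read. Sigirr, a TIR receptor that dampens signals of the family, fell with stimulation in both genotypes, by -0.78 in CD18wt (from 84.3 to 65.2 TPM) and -1.15 in CD18Foxp3 Treg (from 103 to 60.0 TPM) on the log2 scale. Il1rl2 fell past the threshold in CD18Foxp3 Treg, with a log2 fold change of -2.15 from 1.13 TPM, and had -0.79 (SE 0.52) in CD18wt Treg. Of the 2 further receptors tested, 1 thus passed in CD18wt and 2 in CD18Foxp3 Treg, beside 33.6% and 38.6% of all genes. Between the unstimulated genotypes, Sigirr was higher without overlap in CD18Foxp3 Treg (log2 fold change 0.26, SE 0.084), 1 of 2 tested, beside 8.74% of all genes. Il1rn was lower without overlap there (-1.05, SE 0.46), 1 of 3 tested, beside 6.9%. In stimulated Treg, Sigirr overlapped (-0.10, SE 0.20) and Il1rn had too few reads for the fit.

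Of 19 genes listed as a signalling chain around MyD88, none passed the threshold between the genotypes in either culture, as against 0.135% and 0% of all genes. Irak3, an inhibitory member of the IRAK family, was lower without overlap in CD18Foxp3 Treg in both cultures, at 4.96 against 3.66 TPM in unstimulated (log2 fold change -0.46, SE 0.22) and 2.85 against 1.46 TPM in stimulated Treg (-0.95, SE 0.44). Tab1 (0.23) and Ube2v1 (0.17), 2 of 19 genes, were higher without overlap in unstimulated Treg, beside 8.74% of all genes. Over all genes, 6.9% were lower without overlap in unstimulated and 4.41% in stimulated Treg. Irak3 was 1 of 19 and 1 of 18 tested genes so. Summed over 6 myeloid markers, the level was 8.28 to 19.7 TPM in unstimulated CD18wt and 4.31 to 10.4 TPM in unstimulated CD18Foxp3 Treg, which overlapped. After stimulation it was 5.76 to 9.59 TPM in CD18wt and 8.78 to 11.3 TPM in CD18Foxp3 Treg. The part of other cells in the values of Irak3 was not tested. The median log2 fold change was 0.028 over 19 tested genes in unstimulated and 0.024 over 18 in stimulated Treg, where the median of all genes was -0.0044 and -0.0029. The 10 NF-kappaB response genes had medians of -0.049 and -0.076 and none passed. Nfkbie (0.24) was higher without overlap in unstimulated and Relb (-0.38) lower in stimulated Treg, 1 of 10 each, beside 8.74% and 4.41% of all genes. On stimulation, 5 of 18 tested chain genes passed in CD18wt Treg, 2 higher and 3 lower, and 6 of 18 in CD18Foxp3 Treg, 4 higher and 2 lower. Traf6, the ubiquitin ligase of the pathway, rose by 1.04 in CD18wt and 0.99 in CD18Foxp3 Treg on the log2 scale, and Map3k7 (TAK1) rose by 0.71 and 0.74. Irak3 fell with log2 fold changes of -1.21 and -1.70, and Peli2 with -1.75 and -2.11. Peli1 passed in CD18wt Treg at -0.61 and had -0.49 in CD18Foxp3 Treg. Tirap and Ube2n passed in CD18Foxp3 Treg at 1.74 and 0.63 and had 1.42 and 0.42 in CD18wt Treg. Of the NF-kappaB response genes, Rel (1.65 and 1.98), Nfkbid (1.42 and 1.23) and Nfkb2 (1.21 and 1.10) rose in both genotypes and Bcl3 fell (-0.71 and -0.72). Tnfaip3 passed in CD18Foxp3 Treg at -2.67 (SE 0.14) and had nearly the same value in CD18wt Treg, -2.64, with a wider error (SE 0.86). Nfkbie passed in CD18Foxp3 Treg at -0.61 and had -0.24 in CD18wt Treg. These counts stand beside 33.6% and 38.6% of all genes past the threshold.

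Genes known from ST2+ tissue Treg were read as a list of 14. Between the genotypes, 0 of 14 passed the threshold in either culture, beside 0.135% and 0% of all genes. Of the 14, 6 were higher without overlap in unstimulated and 7 in stimulated Treg, beside 8.74% and 5.02% of all genes, and 1 (Irf4) was lower without overlap in unstimulated Treg, beside 6.9%. The list was chosen with earlier results of these data known. The median log2 fold change of the list was 0.23 in unstimulated and 0.57 in stimulated Treg, and 12 of 14 genes had a positive value in each. Values below 0 were those of Irf4 (-0.42) and Areg (-0.017) in unstimulated Treg. In stimulated Treg they were those of Dgat2 (-0.21) and Irf4 (-0.15). Among the higher values, Itgae, which encodes the integrin chain CD103, had 1.30 (SE 0.21) and 2.19 (SE 0.62). Klrg1, an inhibitory receptor of terminally differentiated cells, had 1.00 (SE 0.30) and 1.11 (SE 0.39), and its stimulated libraries overlapped between the genotypes. Gata3, the transcription factor whose core motif was sought above, had 0.085 (SE 0.12) in unstimulated and 0.69 (SE 0.20) in stimulated Treg. Ccr8, a chemokine receptor of tissue Treg, had 0.24 (SE 0.23) and 0.92 (SE 0.19). A further 8 genes linked to Th1-type Treg had medians of 0.040 over 7 tested genes and 0.12 over 8, with 1 gene higher without overlap in each culture and none past the threshold. The difference between the lists was not tested.

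Between the cultures, both lists had members past the threshold, which 33.6% of all genes passed in CD18wt and 38.6% in CD18Foxp3 Treg. Of the 14 ST2+ tissue-type genes, 5 rose and 1 fell past the threshold in CD18wt Treg, with Irf4 (3.67), Itgae (-1.74), Ccr8 (1.46), Dgat2 (1.38), Prdm1 (0.73) and Nfil3 (0.68) on the log2 scale. In CD18Foxp3 Treg, 5 rose and none fell: Irf4 (3.94), Ccr8 (2.14), Pparg (1.93), Prdm1 (0.95) and Nfil3 (0.72). The genes past the threshold in 1 genotype had values of the same sign in the other, with -0.86 for Itgae and 1.11 for Dgat2 in CD18Foxp3 Treg and 1.76 for Pparg in CD18wt Treg. Of the 8 Th1-type genes, Il12rb1 (2.12) and Tbx21 (2.01) rose and Stat4 (-1.38) and Cxcr3 (-1.29) fell in CD18wt Treg. In CD18Foxp3 Treg, 5 rose and 2 fell, led by Il12rb2 (3.08), Ifng (2.04) and Cxcr3 (-2.03), followed by Tbx21 (1.96), Il12rb1 (1.70) and Stat4 (-1.18). In CD18wt Treg, Il12rb2 had 2.57 and Ifng 1.56.

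Across the 12 libraries, the genes whose log2 CPM (counts scaled by depth, prior count 2) followed Il18r1 most closely among 12672 genes were Ccr2 (Pearson r = 0.96, rho = 0.87), D630039A03Rik (r = 0.96, rho = 0.92), Lyn (r = 0.94, rho = 0.77), Cobl (r = 0.94, rho = 0.92) and Iqgap2 (r = 0.93, rho = 0.90). For Il1rl1 they were Slc29a4 (r = 0.92, rho = 0.85), Itgae (r = 0.89, rho = 0.87), Il18rap (r = 0.88, rho = 0.83), Atp2b4 (r = 0.88, rho = 0.83) and Cobl (r = 0.86, rho = 0.82). Il18r1 ranked 13th for Il1rl1 (r = 0.83) and its own partner Il18rap ranked 1212th for Il18r1 (r = 0.63). These values describe the 4 groups and their libraries together, which share depth and culture, and carry no test.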

How the data were processed

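The authors mapped 59-base single reads to GRCm38 in CLC Genomics Workbench with default settings and deposited, for each library, total and uniquely placed exon read counts, intron read counts and TPM per gene, the counts without normalization. The labels do not state whether counting used strand. Sample labels gave the group and replicate number of each library.

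The exon counts were fitted in edgeR 4.0.16 under R 4.3.3 (filterByExpr with a minimum count of 10, TMM, quasi-likelihood F-test with robust dispersion) over all genes, and p-values were adjusted by Benjamini-Hochberg over every tested gene. The standard error (SE) of a log2 fold change was taken as the absolute log2 fold change over the root of the F statistic. A gene passed with an adjusted p not above 0.01 and a fold change of 1.5 or more. Each comparison of 2 groups used its 6 libraries, and the interaction used all 12. Members were fitted with all other genes, and their p-values are not given, since their choice rested on values of all 4 groups. Groups were called not overlapping where every TPM of one lay above every TPM of the other. Limits for a count of 0 (3 reads) cover counting error only, as 15 cycles of PCR preceded sequencing.

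Alternatives were DESeq2 1.42.0, edgeR's likelihood ratio test, upper-quartile and DESeq2 size factors, no filter, uniquely placed reads, 10 reads in every library, the replicate number as a block, limma 3.58.1 on TPM (log2, pseudocounts 1 and 0.1), 1 fit of all 12 libraries, a limit of 0.05 on the adjusted p and leaving out each library in turn. The members, gene lists and marker lists were chosen with earlier results of these data known. Named in the text are all members, pathway-list genes past the threshold (up to 6 a list and comparison, largest first), tested genes within 500 kb of Il18r1, and the 5 genes most correlated with Il18r1 and Il1rl1. Genes of the marker lists also passed the threshold between the cultures and are not all named. Other list genes given with values were chosen after their values were seen. Marker lists covered Treg and CD4 T cells, B cells, myeloid cells, neutrophils, mast cells and basophils, NK cells, CD8 T cells and stromal cells. Summed over all libraries' ranges, B cell markers reached 8.79 to 30.8 TPM, mostly Cd79b, myeloid markers 4.31 to 19.7 TPM, neutrophil markers at most 1.23 TPM, CD8 T cell markers 12.6 to 30.4 TPM, nearly all Cd8b1, and stromal markers 13.5 to 56.8 TPM, nearly all Pecam1. Count tests were tested on simulated libraries. Promoter sequences are from RefSeq (GRCm38.p6). Python 3.11.15, pandas 2.3.3 and matplotlib 3.10.9 were used for tables and figures.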

Additional observations from a re-analysis of the deposited data

How the results depend on the processing

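Counts of members past the threshold describe values their choice had used, and between the genotypes they depended on the test. In stimulated Treg the members past the threshold were 3 with DESeq2, 1 with the likelihood ratio test and 4 without a filter, against 0 with the other settings and with each library left out. Genes in all were then 22, 16 and 61, with 1 each for limma on log2(TPM + 0.1) and for the replicate block, and 0 to 2 with each library left out. In unstimulated Treg the members past the threshold were 3 with DESeq2, 3 with the likelihood ratio test, 4 without a filter, 2 at an adjusted p of 0.05, and 0 with limma on either TPM scale and with all 12 libraries. Genes in all were 86, 86, 134, 33, 1 on log2(TPM + 1), 2 on log2(TPM + 0.1) and 0. With each library left out, 0 to 1 members and 0 to 44 genes passed there. The cause of these differences was not tested.

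For stimulation in CD18wt Treg, 2 members passed with DESeq2, the likelihood ratio test, no filter and all 12 libraries, 3 at an adjusted p of 0.05, and 0 to 1 with each library left out. For stimulation in CD18Foxp3 Treg, 2 passed with upper-quartile normalization and without a filter, 0 with limma on log2(TPM + 1), and 1 to 2 with each library left out. The counts over all genes for stimulation stayed within 1.5 times the reported ones. The interaction called 0 members under every setting run, and 1 gene with DESeq2 and with limma on each TPM scale, 6 with the likelihood ratio test and 31 without a filter.

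Replicate numbers are shared between the groups, and the deposited tables of same-numbered unstimulated and stimulated libraries of a genotype carry a common number whose meaning is not given. Nothing in the labels ties a number to a mouse. Deviations of same-numbered libraries from their group means correlated by -0.13 to 0.15, above 0.1 for every pair in none of the comparisons. Between the cultures of CD18Foxp3 Treg, same-numbered libraries had 0.13, 0.065 and 0.15, and all other pairs had -0.13 to -0.020. In CD18wt Treg same-numbered libraries had 0.093, -0.021 and -0.092, and other pairs -0.11 to 0.11. Whether the 2 cultures share mice was not tested. With a replicate block, 2 members and 41 genes passed between unstimulated genotypes. On stimulation the block left Il18r1 called in CD18wt Treg (-0.93) and Il1rap not (-0.72), and gave 2 members in CD18Foxp3 Treg, where Il1r2 was at 0.67. It changed no other call of a member in the comparisons of the cultures or in stimulated Treg.

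Small values changed sign. The genotype difference of Myd88 in stimulated Treg was 0.011 and 0.070 without CD18wt replicates 1 and 2 and 0.059 without CD18Foxp3 replicate 1, within -0.17 to 0.070 over the 6 such fits. The stimulation value of Il18rap in CD18wt Treg was -0.022 with DESeq2, -0.081 with upper-quartile normalization, -0.023 with DESeq2 size factors, -0.0016 with uniquely placed reads, -0.034 with the replicate block, and -0.027, -0.092 and -0.34 without unstimulated replicates 1 and 3 and stimulated replicate 1. That of Il1rl1 in CD18Foxp3 Treg was 0.18 and 0.19 with limma on log2(TPM + 1) and log2(TPM + 0.1), and 0.16, 0.034 and 0.090 without unstimulated replicate 3 and stimulated replicates 1 and 2, within -0.59 to 0.16 over the 6 such fits. The interaction of Il18r1 was -0.0078 without a filter and -0.22 to 0.34 with each library left out (-0.081, -0.0070, -0.031, -0.22, -0.043 and -0.15 in the 6 fits that reversed it), and that of Il1r1 was -0.14, -0.21 and -0.19 in 3 such fits.

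Il1r1 had at most 25 exon reads in any library, and the interaction was fitted on 3 libraries a group. The part of depth and of the number of libraries in these results was not tested.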
